A study of Rattus norvegicus with 89 samples.

Results

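Gene expression in the kidney was compared directly between 6 rats given cisplatin and 5 rats given doxorubicin, each treated daily for 5 days. These 11 arrays, 1 per rat, were chosen by the compound and duration in their titles, out of 89 arrays in the whole series. The series profiled kidneys of rats dosed with nephrotoxic and other compounds or with saline, in 15 groups. All rats were Sprague-Dawley animals of the Crl:CD(SD) stock, about 7 to 8 weeks old at purchase and acclimated for 6 days. The cisplatin group held 3 males and 3 females, and the doxorubicin group held 2 males and 3 females. RNA was extracted from homogenised apical parts of both kidneys of each rat, so tubules, glomeruli, vessels, resident immune cells and blood left in the tissue were measured together. The labels name neither dose nor route, so a difference is between these regimens and not between matched doses. Signals of 5 rats given saline for 5 days, 3 males and 2 females, are set beside some genes for scale. The comparison between drugs holds no saline arrays.

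Cisplatin is a platinum compound that proximal tubule cells take up and concentrate, and it forms crosslinks in DNA that block replication and transcription. Doxorubicin is an anthracycline that inserts into DNA and traps topoisomerase II on broken strands. In rats it is widely used to injure podocytes, the filtering cells of the glomerulus. Both drugs activate p53 in damaged cells and both can suppress the bone marrow, which makes red cells, monocytes and granulocytes. Young red cells still carry globin mRNA, so a kidney that contains blood also yields red cell transcripts.

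The genes called between the drugs include some of red cells and of antigen presentation, and 1 cell cycle gene recurs among the drug targets described further on. Promoters of 5 of them are shown here, as the 250 bases before the start given for each gene in RefSeq's table for the rat assembly GRCr8, on the strand of the gene. The promoters are shown because transcripts of these genes moved in groups. For the globin pair and the RT1 pair, the letters let a reader see which elements the promoters share. Capitals mark matches on either strand to motifs of known factor classes. For the globin genes these were GATAA, bound by GATA1, CACCC, bound by KLF1, CCAAT and TATAAA. For the genes of major histocompatibility complex (MHC) class II they were TAGCAAC, the core of the X box, and CCAAT, the core of the Y box. For Top2a they were TTTGAA, the cell cycle homology region, and CCAAT.
Hbb: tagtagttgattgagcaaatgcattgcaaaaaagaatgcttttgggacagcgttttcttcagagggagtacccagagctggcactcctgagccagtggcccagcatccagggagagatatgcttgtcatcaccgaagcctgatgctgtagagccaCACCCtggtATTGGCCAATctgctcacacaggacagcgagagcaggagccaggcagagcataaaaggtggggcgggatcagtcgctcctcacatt
Hba-a3: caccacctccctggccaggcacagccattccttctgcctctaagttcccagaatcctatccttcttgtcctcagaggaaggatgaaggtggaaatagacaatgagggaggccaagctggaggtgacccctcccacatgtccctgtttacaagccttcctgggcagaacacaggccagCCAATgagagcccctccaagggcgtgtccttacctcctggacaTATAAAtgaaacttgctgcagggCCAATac
RT1-Da: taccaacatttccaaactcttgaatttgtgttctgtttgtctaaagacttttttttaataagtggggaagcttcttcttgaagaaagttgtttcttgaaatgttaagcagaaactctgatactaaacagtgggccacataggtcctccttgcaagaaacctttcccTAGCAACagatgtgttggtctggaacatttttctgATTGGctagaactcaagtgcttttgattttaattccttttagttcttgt
RT1-Db1: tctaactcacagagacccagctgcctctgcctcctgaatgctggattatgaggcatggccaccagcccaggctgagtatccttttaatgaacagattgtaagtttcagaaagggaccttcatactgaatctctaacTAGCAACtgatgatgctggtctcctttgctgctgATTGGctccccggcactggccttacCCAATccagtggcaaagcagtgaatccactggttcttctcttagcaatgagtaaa
Top2a: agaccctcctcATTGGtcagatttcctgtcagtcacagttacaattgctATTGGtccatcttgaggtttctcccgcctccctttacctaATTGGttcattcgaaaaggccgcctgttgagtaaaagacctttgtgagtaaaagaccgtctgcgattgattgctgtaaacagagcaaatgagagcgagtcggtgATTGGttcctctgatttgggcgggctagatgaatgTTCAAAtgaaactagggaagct

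The Hbb window, chr1:167663722-167663971 on the minus strand, held CACCC 95 bases before the start and CCAAT or its reverse ATTGG at 86 and 81 bases, which overlap as ATTGGCCAAT. The Hba-a3 window, chr10:15816944-15817193 on the minus strand, held CCAAT at 73 and 7 bases and TATAAA at 30 bases. Neither globin window held GATAA, which says only that these letters are not in these windows. The RT1-Da window, chr20:4515165-4515414 on the plus strand, held TAGCAAC at 84 bases and ATTGG at 49 bases, 35 bases apart. The RT1-Db1 window, chr20:4560163-4560412 on the minus strand, had the same order, with ATTGG at 80 bases, TAGCAAC 34 bases further upstream of it, and a further CCAAT at 55 bases. The last 22 bases of the RT1-Da window and 20 of the RT1-Db1 window lie inside the annotated gene. The Top2a window, chr10:84473094-84473343 on the minus strand, held TTCAAA, the reverse of TTTGAA, 22 bases before the start and ATTGG at 239, 201, 161 and 57 bases. Of 27457 promoter windows of this length, TAGCAAC was present in 2.92%, TATAAA in 13.1%, TTTGAA in 16%, GATAA in 23.2%, CCAAT in 34.3% and CACCC in 49.4%. Apart from TAGCAAC, these letters are common, and a match is a description of the sequence and not evidence of binding.

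The tissue label fitted the arrays, since every marker of proximal tubule, loop of Henle, distal tubule and collecting duct that was measured exceeded the low-signal limit of 33.1 on all 11 arrays. The T cell markers Cd3e and Cd2, the granulocyte genes S100a8 and S100a9 and the adrenal markers Cyp11b1, Star and Cyp21a1 stayed under that limit on all 11. Among other T cell genes, Lck had 69.6 to 109.4 in cisplatin rats and 51.0 to 73.5 in doxorubicin rats, and Cd3g had 36.9 to 54.8 and 32.8 to 54.6, and neither passed. Unscaled trimmed mean signals were 144 to 253 in cisplatin rats and 121.02 to 196 in doxorubicin rats. The rank correlation between arrays was taken over all probe sets, dim ones and controls included. It was 0.953 to 0.976 within the cisplatin group, 0.945 to 0.972 within the doxorubicin group and 0.950 to 0.976 between them, so the groups did not stand apart in the profile as a whole. The log2 ratio of the 3' to the 5' Gapdh probe sets was taken as a measure of RNA quality. It was 0.22 to 0.45 in cisplatin rats and 0.26 to 0.76 in doxorubicin rats. In the saline rats used for scale it was 0.26 to 1.58, and the top value, in a female, lay above every rat of either drug. The saline ranges below include that female, and whether they depend on her array was not tested.

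Few genes separated the drugs. Of 10549 genes tested, 9 (0.0853%) passed an adjusted p of 0.05, 8 of them higher with cisplatin (0.0758%) and 1 lower (0.00948%). The 8 were Hbb, Hba-a3, Alas2, Slpi, Ighvl1, RT1-Da, RT1-Db1 and Slc51a, and the 1 lower gene was Sugct. Alas2, Slpi and Ighvl1 exceeded the low-signal limit in cisplatin rats alone and were tested only because of those rats. The split of 8 and 1 is therefore not a test of direction. At an unadjusted p of 0.05 the counts were 815 genes (7.73%), 436 higher (4.13%) and 379 lower (3.59%). When the spread between rats was estimated from all 89 arrays, 74 genes passed (0.701%), 41 higher with cisplatin (0.389%) and 33 lower (0.313%), and 7 of the 9 were among them. At an unadjusted p of 0.05 that fit had 1037 genes (9.83%), 587 higher (5.56%) and 450 lower (4.27%). Slpi and Slc51a were the exceptions, with adjusted p of 0.0507 and 0.17. Over all genes tested, 51.1% were higher with cisplatin and the median log2 difference was 0.00387. Without scaling of the arrays that median was 0.24, and every list below whose median was between -0.12 and 0 then had a median above 0. Every cisplatin rat lay above every doxorubicin rat for 33 genes (0.313%) and below for 25 (0.237%). Lists below were chosen with earlier results of these data known, and a dim gene can pass the filter through rats of 1 drug. Counts and medians of a list are thus descriptions. The shares of all genes called, 0.389% higher and 0.313% lower with all 89 arrays, stand beside the list calls. Differences are of log2(scaled signal + 16), cisplatin minus doxorubicin, which understates the fold of dim genes.

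**Figure D1:**
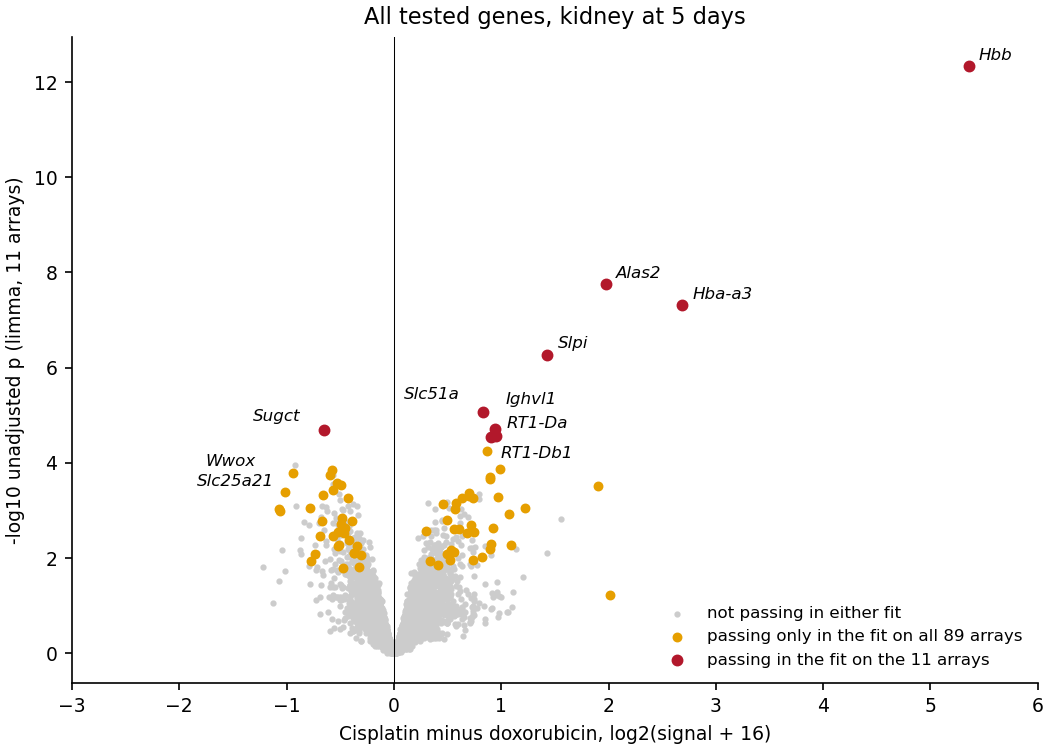
Log2 difference, cisplatin minus doxorubicin at 5 days (x axis), against the negative log10 of the unadjusted p (y axis) for each of the 10549 genes tested. Red points passed at an adjusted p of 0.05 in the fit on the 11 arrays (9 genes) and orange points passed only with all 89 arrays; Hbb lies alone at 5.36.

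Red cell transcripts differed most, and were low in every doxorubicin rat. Among cisplatin rats, Hbb and Alas2 lay below the saline range in every female, and Alas2 also in a male. Hbb, which encodes the beta chain of haemoglobin, had scaled signals of 2331, 2330, 3411, 4859, 4528 and 4634 in the cisplatin rats, against 74.5, 73.0, 70.3, 58.9 and 64.8 in the doxorubicin rats. The lowest cisplatin rat lay far above the highest doxorubicin rat. Means were 3682 ± 1161 and 68.3 ± 6.4 (SD, n = 6 and 5), a log2 difference of 5.36 ± 0.17 (SE), or 40.9-fold, with an adjusted p of 4.89e-09. Saline rats had 4345 to 5664, so that the male cisplatin rats lay inside the saline range and the female ones below it. Hba-a3, an alpha globin gene, had 210, 139.1, 316, 569, 399 and 390 in cisplatin rats, against 36.8, 12.1, 34.3, 36.1 and 46.9 in doxorubicin rats. Here too no values overlapped, and the log2 difference was 2.69 ± 0.23 (SE) with an adjusted p of 0.00017. Near-identical globin copies share probes, so a signal cannot be assigned to 1 copy, and the 5 probe sets listed under several globin symbols differed in the same direction by log2 values of 4.64 to 5.97.

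Alas2, the red cell enzyme that starts haem synthesis, followed the globins. Its signal was 69.9, 45.6, 68.6, 139.6, 140.96 and 95.1 in cisplatin rats and 6.2, 2.6, 10.6, 14.9 and 13.2 in doxorubicin rats. All doxorubicin rats lay under the low-signal limit, and all saline rats, at 126.3 to 202, lay above it. The difference was log2 1.98 ± 0.16 (SE), with an adjusted p of 9.36e-05, and against the limit cisplatin was at least 2.61-fold higher. Of 14 red cell genes listed, 5 passed the filter on low signals, Alas2 through the cisplatin rats alone, so no count over the list is given. The remaining members were Slc4a1, the anion exchanger that collecting duct cells also make, and Tfrc, the transferrin receptor that tubule cells also make. They differed by -0.23 and 0.27 on the log2 scale and did not pass. In tissue such as this, fewer cells of a type and less RNA per cell cannot be told apart, for red cells or for any cell type below.

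**Figure D2:**
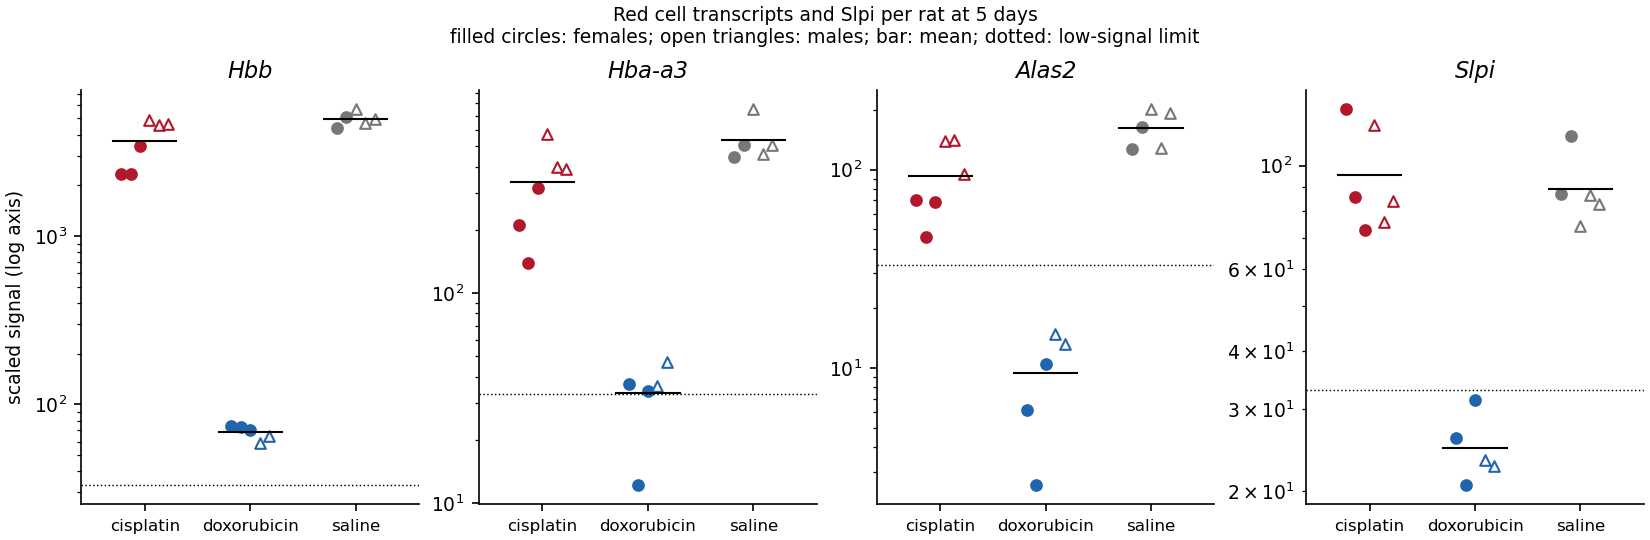
Scaled signal (log axis) of Hbb, Hba-a3, Alas2 and Slpi in each rat at 5 days, for cisplatin, doxorubicin and saline from left to right. Filled circles are females, open triangles males, bars the group means and the dotted line the low-signal limit of 33.1; every doxorubicin rat lies below every cisplatin rat in each panel.

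Some transcripts of antigen presentation and of myeloid cells were also higher with cisplatin. RT1-Da and RT1-Db1 encode the alpha and beta chains of the rat DR-type MHC class II molecule, which displays peptides to CD4+ T cells. RT1-Da had 1851, 1408 and 1801 in female and 981, 1203 and 985 in male cisplatin rats, against 1002, 1306 and 998 in female and 389 and 400 in male doxorubicin rats. Within each sex the groups did not overlap, while pooled they did, because females of both groups had more signal than males. With so few rats of a sex such separation is only a description. The share of all genes that show it is not given, here or for the genes below. The log2 difference with sex in the model was 0.95 ± 0.15 (SE), adjusted p 0.034. RT1-Db1 had 684, 583 and 737 in female and 388, 388 and 274 in male cisplatin rats, against 465, 426 and 422 in female and 120 and 144 in male doxorubicin rats. It differed by 0.90 ± 0.14 (SE), adjusted p 0.034, again without overlap within a sex. A second RT1-Db1 probe set differed by 0.02, and as members of a multigene family both genes are uncertain. Leaving out 1 rat at a time ended the call of RT1-Da in 8 of 11 fits and that of RT1-Db1 in 9 of 11.

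Cd74, the invariant chain that guides MHC class II molecules to the endosome, had 1503 to 3113 (median 2321) in cisplatin rats and 584 to 2132 in doxorubicin rats. Its difference of 0.98 did not pass in the 11 arrays (adjusted p 0.117) and passed with all 89 (0.00405). Clec7a, or dectin-1, a receptor of macrophages and dendritic cells for fungal glucans, had 105.6, 133.1, 83.7, 131.15, 100.9 and 91.0 in cisplatin rats against 45.1, 60.7, 62.8, 56.9 and 36.2 in doxorubicin rats. These groups did not overlap, yet the difference of 0.86 ± 0.15 (SE) fell just outside the threshold, with an adjusted p of 0.0595 in the 11 arrays and 0.00333 with all 89. Mpeg1, the pore-forming protein of macrophages, showed a difference of 0.90, and Csf1r, the receptor that macrophages need to survive, one of 0.57. Their adjusted p was 0.123 and 0.187 in the 11 arrays and 0.00304 and 0.0479 with all 89.

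Of 24 macrophage and granulocyte genes listed, 17 passed the filter, all 17 were higher with cisplatin and the median difference was 0.43, beside 0.00387 over all genes. None of them passed in the 11 arrays, and 3 passed as higher with all 89, beside 0.389% of all genes. The list was chosen with earlier results of these data known, so 17 of 17 and the median are not a test of it. The mean log2 level over the 17 was 7.37 to 7.77 in cisplatin rats, against 6.66 to 7.64 in doxorubicin rats and 7.42 to 7.81 in saline rats. The cisplatin rats thus lay near the saline rats, the male doxorubicin rats were the lowest, and the ranges of the drug groups overlapped. Ccl6, a rodent chemokine of myeloid cells, had 130.1 to 315 in cisplatin rats and 38.6 to 113.6 in doxorubicin rats, with a difference of 1.22 that passed with all 89 arrays and not in the 11 (adjusted p 0.00304). Adam8, a leukocyte metalloprotease, had 15.8 to 83.7 in cisplatin rats, 7.4 to 18.1 in doxorubicin rats and 6.6 to 21.4 in saline rats, so that 5 of 6 cisplatin rats stood above both ranges and 1 male lay inside them. It passed with all 89 arrays (adjusted p 0.000775) and without that male (0.0181), and against the limit cisplatin was at least 1.32-fold higher. Like Alas2, Adam8 passed the filter on low signals through cisplatin rats alone. Globin and Alas2 transcripts were low in every doxorubicin rat. The myeloid list with doxorubicin reached lower than with saline but overlapped it, and Adam8 lay inside the saline range. The part that the amount of blood in the tissue had in the immune differences was not tested.

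**Figure D3:**
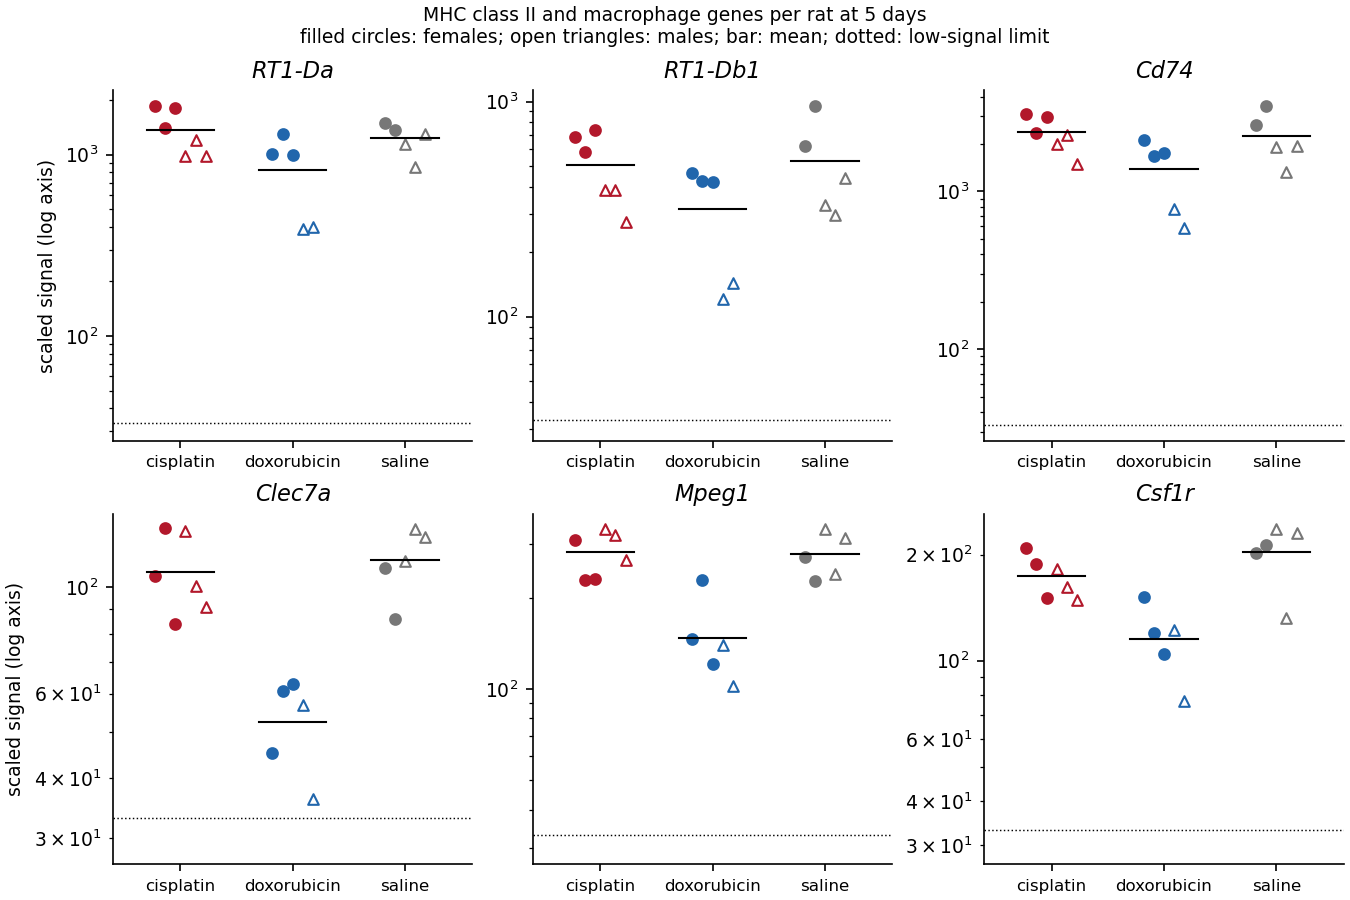
Scaled signal (log axis) of RT1-Da, RT1-Db1, Cd74, Clec7a, Mpeg1 and Csf1r in each rat at 5 days, for cisplatin, doxorubicin and saline from left to right. Filled circles are females, open triangles males, bars the group means; for Clec7a no doxorubicin rat reaches the lowest cisplatin rat at 83.7.

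Slpi encodes secretory leukocyte protease inhibitor, which epithelia and myeloid cells release against neutrophil elastase. It had 132.2, 85.5, 72.7, 122.1, 75.5 and 84.0 in cisplatin rats against 26.1, 20.6, 31.4, 23.4 and 22.6 in doxorubicin rats. Saline rats had 74.2 to 115.6, so cisplatin lay near saline and doxorubicin lay below both and under the low-signal limit. The log2 difference was 1.43 ± 0.16 (SE), adjusted p 0.0014, and cisplatin was at least 2.81-fold higher against the limit. Slpi passed the filter on low signals through the cisplatin rats alone, so its adjusted p is not independent of that filter. Ighvl1, named as an immunoglobulin heavy chain variable gene, had 45.1 to 65.4 (median 57.5) in cisplatin rats and 11.8 to 28.2 in doxorubicin rats. It differed by 0.95 ± 0.14 (SE), adjusted p 0.0299, or at least 1.67-fold against the limit. Like Slpi, it passed the filter through the cisplatin rats alone. Its family has many similar copies, so the source of its signal is uncertain, and its call was lost in 9 of 11 fits that left out 1 rat.

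Slc51a, a subunit of the basolateral transporter that exports bile acids and steroids, had 346, 228, 300, 453, 448 and 358 in cisplatin rats against 148.5, 187, 146.3, 203 and 234 in doxorubicin rats. The groups overlapped at 228 and 234 when sexes were pooled. Within a sex they did not, a separation for which no share over all genes is given. Its difference was 0.83 ± 0.12 (SE), adjusted p 0.0178, and the call was lost in 7 of 11 fits that left out 1 rat. Sugct, a mitochondrial enzyme of glutarate breakdown, was the gene that fell. It had 286, 331, 331, 355, 391 and 281 in cisplatin rats against 609, 475, 529, 516 and 495 in doxorubicin rats, with no overlap. Saline rats had 383 to 627, and only 1 of 5 lay inside the cisplatin range. The log2 difference was -0.65 ± 0.10 (SE), adjusted p 0.0299, and the call was lost in 9 of 11 fits that left out 1 rat while it held with all 89 arrays (0.000442).

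Targets of p53 were compared next, because both drugs damage DNA. Of 33 targets listed, 22 passed the filter, 16 of these were higher with cisplatin and the median difference was 0.14. None passed in the 11 arrays. With all 89 arrays Plk2, a stress kinase, and Ccng1, which encodes cyclin G1, passed with adjusted p of 0.00302 and 0.0144. Plk2 had 191, 140.3, 180.6, 349, 163 and 479 in cisplatin rats against 100.1, 112.8, 105.3, 137.8 and 89.6 in doxorubicin rats, without overlap. Ccng1 had 1469, 1465, 1550, 1878, 1161 and 2515 in cisplatin rats and 913, 985, 953, 1538 and 1318 in doxorubicin rats, which overlapped. Saline rats had 542 to 707 for Ccng1, below every rat of either drug. Cdkn1a, the cell cycle inhibitor p21, averaged 251 ± 165 with cisplatin and 169 ± 62.9 with doxorubicin (SD), beside 84.1 with saline. Mdm2, which marks p53 for degradation, and Phlda3, an inhibitor of Akt, differed by 0.32 and 0.36 and did not pass. The mean log2 level of the 22 targets was 8.19 to 8.87 in cisplatin rats, 8.11 to 8.44 in doxorubicin rats and 8.00 to 8.11 in saline rats.

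Repair and drug target genes differed little. Of 22 nucleotide excision repair genes listed, which remove platinum crosslinks within a strand, 20 passed the filter, with 8 higher, a median of -0.02 and no call. Of 25 genes of double-strand break and crosslink repair, 16 passed the filter, 8 were higher and the median was 0.01, again with no call. Parp1, which senses strand breaks, had 467 to 545 in cisplatin rats and 415 to 469 in doxorubicin rats, a difference of 0.16 on the log2 scale with adjusted p of 0.595. Among 10 genes of the BCL2 family that passed the filter, 4 were higher and none passed the test. Bcl2a1, a survival factor of leukocytes, had the largest difference of them, at 0.73. Of 20 listed topoisomerases and genes that handle anthracyclines, 18 passed the filter and 6 were higher, and Top2a alone passed, with all 89 arrays.

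Some genes of cell division were higher with cisplatin, in the fit on all 89 arrays, with the top values in males. Top2a, the topoisomerase that dividing cells need to separate chromosomes and 1 of the targets of doxorubicin, had 51.8, 63.8, 34.0, 118.96, 73.2 and 138.65 in cisplatin rats. Doxorubicin rats had 22.3, 28.9, 20.4, 45.1 and 35.3, and saline rats 32 to 59.7. The drug groups overlapped when pooled, since the female cisplatin rat at 34.0 lay below the male doxorubicin rats. Its log2 difference was 0.90, with adjusted p of 0.126 in the 11 arrays and 0.00417 with all 89, and the range over all alternatives was 7.91e-05 to 0.824. Cdk1, the kinase that starts mitosis, had 32.95 to 120.75 in cisplatin rats and 13.4 to 35.3 in doxorubicin rats, a difference of 0.97 that passed with all 89 arrays and not in the 11 (adjusted p 0.000442). Prc1, a bundler of spindle microtubules, differed by 0.73 and Cdkn3, a phosphatase of Cdk1, by 0.72, and both passed with all 89 arrays and not in the 11. Of 29 listed genes of G2 and mitosis, 19 passed the filter, 17 were higher with cisplatin and the median was 0.46. With all 89 arrays 7 passed as higher, beside 0.389% of all genes, against none in the 11. Members such as Cdk1, near or under the low-signal limit in doxorubicin rats, pass the filter mainly through cisplatin rats. This favours members that are higher with cisplatin, so the 17 of 19 and the median are not a test of the list.

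The mean log2 level of these 19 genes was 6.12, 6.12, 5.79, 6.83, 6.29 and 6.99 in cisplatin rats, against 5.62, 5.76, 5.71, 6.09 and 5.96 in doxorubicin rats. A pair of male cisplatin rats had the highest levels and saline rats, at 5.88 to 6.25, lay between the extremes. Of the genes of the G1 to S transition, 14 of 15 that passed the filter were higher, with a median of 0.12, and 1 passed with all 89 arrays. Ccne2, a cyclin that opens S phase, had 46.7 to 114.7 in cisplatin rats and 25.4 to 46.5 in doxorubicin rats. Its difference of 0.68 passed with all 89 arrays and not in the 11 (adjusted p 0.0268). A second Ccne2 probe set did not show it, with means of 47.9 with cisplatin and 48.7 with doxorubicin and a log2 difference of -0.01.

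Tubular injury markers varied widely between rats of 1 group. Havcr1, or kidney injury molecule 1, had 149.1, 208, 75.7, 1205, 78.0 and 3571 in cisplatin rats, against 12.7, 14.8, 13.4, 1158 and 35.3 in doxorubicin rats. Saline rats had 13.9 to 46.3. Every cisplatin rat thus lay above every saline rat, while only 1 of the 5 doxorubicin rats did. The difference between drugs was 2.01 ± 0.95 (SE) on the log2 scale, adjusted p 0.665, and 0.0478 with all 89 arrays. The pair of male cisplatin rats with the highest Havcr1 were also those with the highest levels of mitotic genes and p53 targets. Without them 4 genes passed in place of 9. Lcn2, which encodes the secreted injury marker NGAL, had 551 in the male doxorubicin rat with high Havcr1 and 49.1 to 61.0 in the other doxorubicin rats, and 65.1 to 957 in cisplatin rats. Of 28 injury markers listed, 25 passed the filter, 22 were higher with cisplatin and the median was 0.34. With all 89 arrays Havcr1 and Icam1, an adhesion molecule for leukocytes, passed. Tff3, a trefoil peptide of the tubule, was among the few lower with cisplatin, at -0.92, and did not pass (adjusted p 0.106). Clu, which encodes the chaperone clusterin, averaged 1334 ± 820 with cisplatin and 1397 ± 1267 with doxorubicin (SD).

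**Figure D4:**
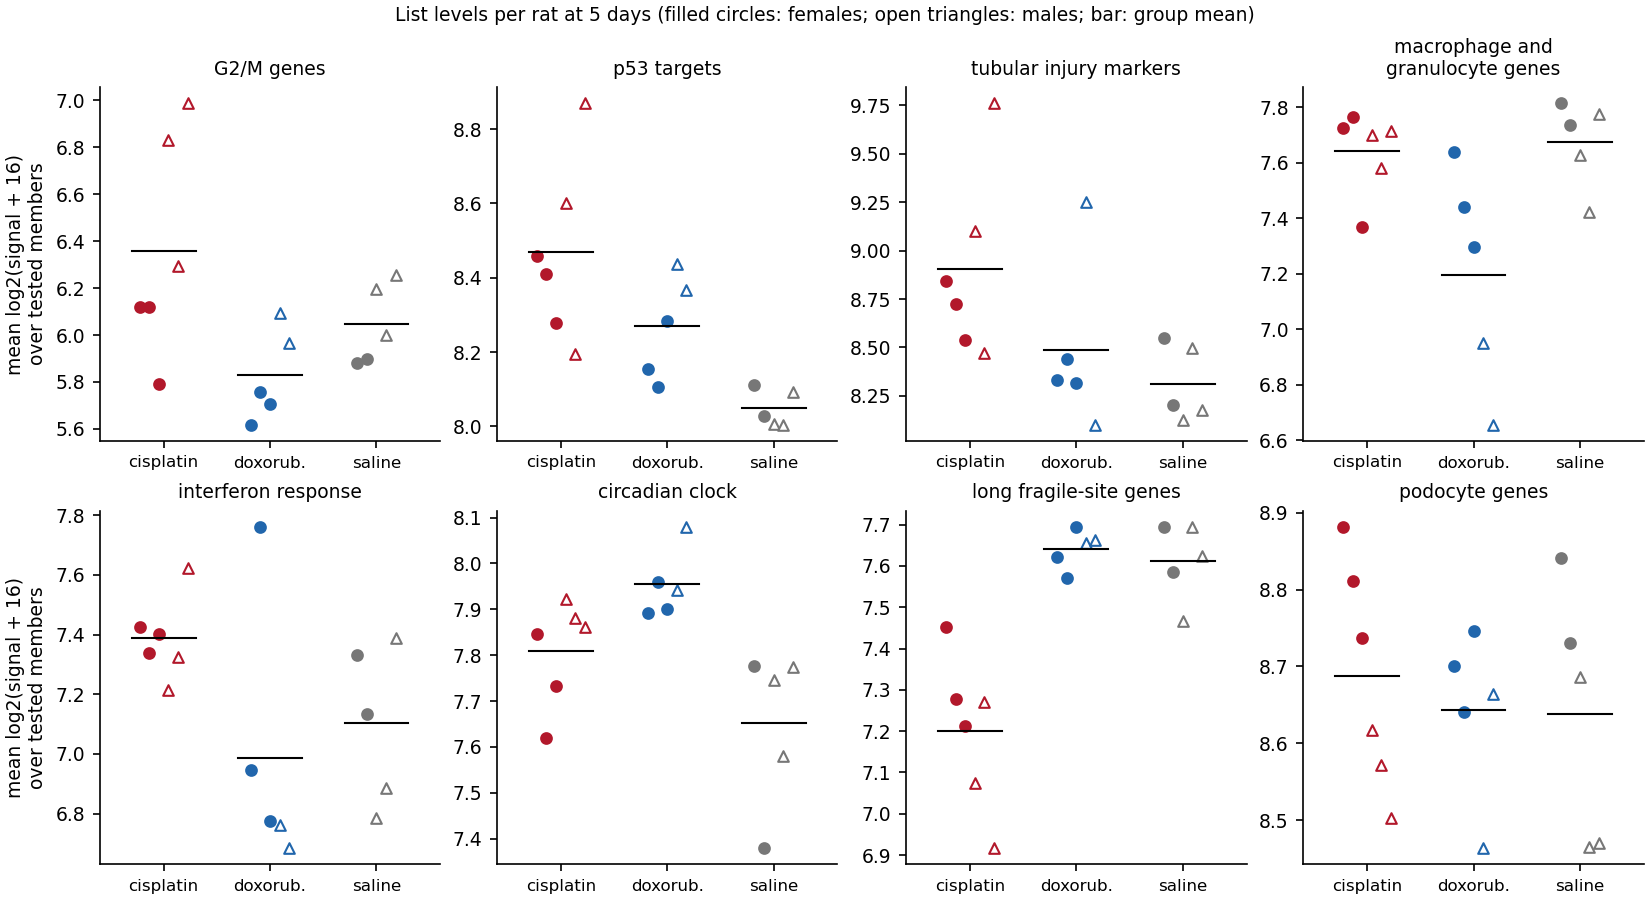
Mean log2 level over the tested genes of 8 lists in each rat at 5 days (y axis, log2 of scaled signal + 16), for cisplatin, doxorubicin and saline from left to right. Filled circles are females, open triangles males and bars the group means; the long fragile-site genes reach 7.45 at most with cisplatin and start at 7.57 with doxorubicin.

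Some very long genes were lower with cisplatin. Of 26 listed genes at common fragile sites, very long genes where replication stress breaks chromosomes, 10 passed the filter and all 10 were lower, with a median of -0.27. The list was chosen with earlier results of these data known, so 10 of 10 and the median are not a test of it. With all 89 arrays 3 of the 10 passed as lower, beside 0.313% of all genes. The mean log2 level of the 10 was 6.92 to 7.45 in cisplatin rats, 7.57 to 7.69 in doxorubicin rats and 7.47 to 7.70 in saline rats. The drug groups did not overlap, and doxorubicin lay within the saline range. Wwox, an oxidoreductase at a fragile site, had 133.65, 69.3, 73.8, 68.2, 46.2 and 39.3 in cisplatin rats, against 140.1, 148.3, 159.3, 139.9 and 152.7 in doxorubicin rats. No values overlapped, though 1 female cisplatin rat came close. The difference was -0.94, with adjusted p of 0.12 in the 11 arrays and 5.22e-06 with all 89, over a range of 5.22e-06 to 0.881 among all alternatives. Other Wwox probe sets differed by -0.44 and -0.02. Dpyd, which starts pyrimidine breakdown, and Fhit, a nucleotide hydrolase, differed by -1.06 and -0.73 and passed with all 89 arrays and not in the 11 (adjusted p 0.00304 and 0.00756). Immp2l, a mitochondrial peptidase, differed by -0.56 and did not pass (0.0625 with all 89).

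A shift in the same direction was seen when genes were binned by the length of the gene in the genome, from RefSeq's table, for 10517 of the genes tested. Fragile-site genes are very long themselves and were not left out, so the bins are not a fully separate observation. Among 250 genes longer than 300 kb, 70.8% were lower with cisplatin and the median difference was -0.09. In the 4 bins of shorter genes the medians were -0.01 to 0.01, and 51.3% of the 1182 genes of 100 to 300 kb were lower. With all 89 arrays 13 of the 250 passed as lower (5.2%) and 0 as higher, beside 0.313% lower over all genes. In the 11 arrays 1 of them passed, Sugct. Others among the 13 were Slc39a11, a zinc transporter, Scfd2, a protein of vesicle transport, and Slc25a21, the mitochondrial oxodicarboxylate carrier, at -0.57, -0.59 and -1.02. Each rat was also set against the mean of the doxorubicin rats of its sex, so doxorubicin rats centre near 0 by construction. The median of the 250 genes was then -0.04, -0.04, -0.04, -0.18, -0.10 and -0.19 in cisplatin rats, against 0.03, -0.01, 0.02, -0.05 and 0.05 in doxorubicin rats. The male cisplatin rats lay lowest, and 1 male doxorubicin rat lay just below the females given cisplatin. At day 1 the median of these genes was also below that of the other bins, at -0.08 beside -0.04 to -0.01.

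**Figure D5:**
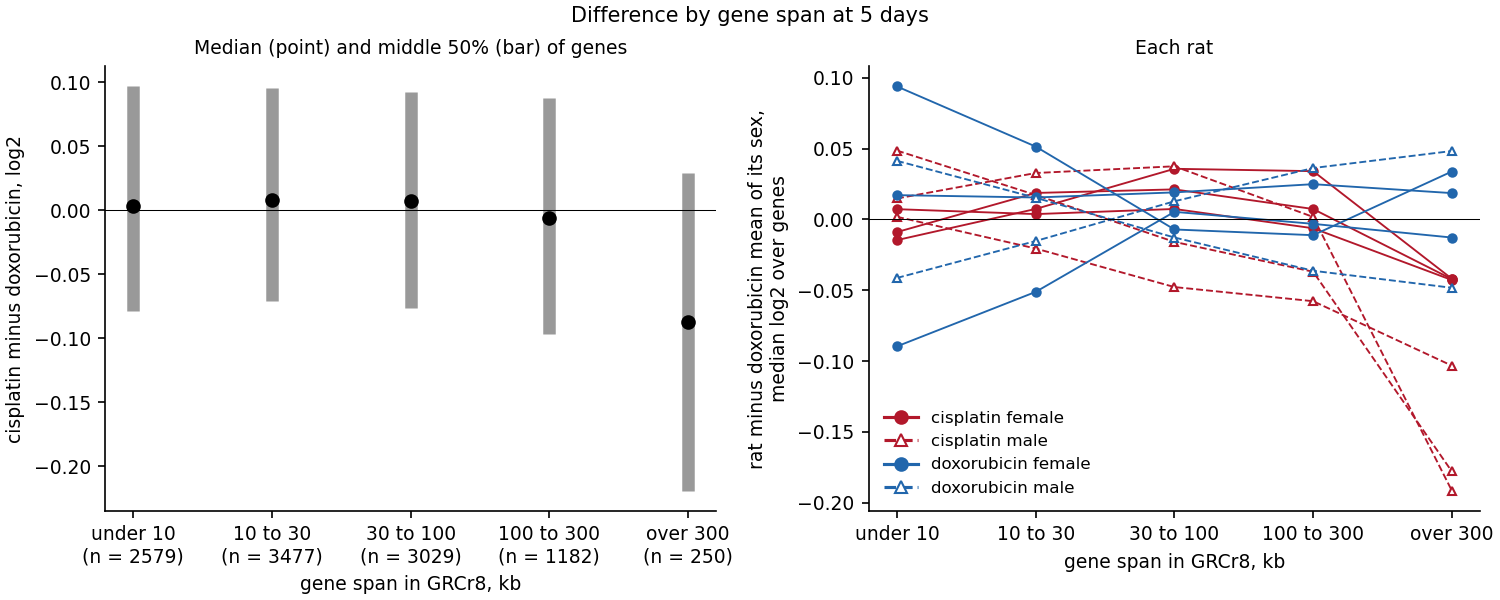
Left, median log2 difference, cisplatin minus doxorubicin, with the middle 50% of genes, in 5 bins of gene length in kb. Right, the median over genes in the same 5 bins for each rat, relative to the mean of the doxorubicin rats of its sex. Filled circles are females and open triangles males, and the lowest value is -0.19, over 300 kb, in a male given cisplatin.

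Interferon-stimulated genes were higher with cisplatin in 23 of 24 that passed the filter, with a median of 0.44. The mean level of the list was 7.21 to 7.62 in cisplatin rats, against 6.94, 7.76, 6.78, 6.76 and 6.68 in doxorubicin rats, so 1 female doxorubicin rat lay above all others. Bst2, or tetherin, which holds budding viruses at the cell surface, had 210 to 357 in cisplatin rats and 121.2 to 207 in doxorubicin rats. Its difference of 0.70 passed with all 89 arrays and not in the 11 (adjusted p 0.0274). Ifi27, Irf7, the master factor of type I interferon induction, and Psmb9, a subunit of the immunoproteasome, differed by 0.79, 0.49 and 0.62 and did not pass. Cytokine and adhesion genes were higher in 12 of 14, with a median of 0.29 and 1 call with all 89 arrays. Immediate early genes were higher in 14 of 16 (median 0.36) and matrix and fibroblast genes in 17 of 21 (median 0.23), with no call in either list. Ccl2, which draws monocytes, had 69.9 to 521 in cisplatin rats and 63.8 to 184 in doxorubicin rats, and Dcn, the matrix proteoglycan decorin, had 1125 to 3013 and 589 to 2524.

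Among clock genes 2 passed with all 89 arrays and none in the 11, and no fat cell gene passed in either fit. Of 16 clock genes that passed the filter, 10 were lower and 6 higher with cisplatin, and the median was -0.33. The 2 that passed were Tef and Bhlhe41, both lower. Tef, an output factor of the clock, had 242 to 413 in cisplatin rats and 390 to 583 in doxorubicin rats, a difference of -0.49 (adjusted p 0.0118). Bhlhe41, a repressor of the clock, had 78.9 to 192 in cisplatin rats against 144.87 to 297 in doxorubicin rats. Saline rats had 246 to 347 for Tef and 64.2 to 158.9 for Bhlhe41, nearer to cisplatin than to doxorubicin. Npas2, an activator in the opposite phase, differed by 0.80 and Per3 by -0.65, and neither passed. The hour of sampling is not in the labels, and its part was not tested. Of 10 fat cell genes, 9 were lower, with a median of -0.54 and no call. Their mean level was 7.39 to 8.37 in cisplatin rats and 7.69 to 8.81 in doxorubicin rats, and the defining markers Plin1 and Cfd exceeded the low-signal limit on 6 of the 11 arrays. The part of fat left on the tissue was not tested.

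Nephron genes, podocyte genes included, showed no common shift. Of 32 proximal tubule transporters that passed the filter, 17 were higher with cisplatin and the median was 0.08. With all 89 arrays Slc17a1, a phosphate and urate transporter, passed as higher at 0.46. Slc15a2, a peptide transporter, and Slco1a1, an organic anion transporter, passed as lower at -0.47 and -0.67. Slco1a1 was measured almost entirely in males, at 1289 to 2045 with cisplatin and 2808 to 3069 with doxorubicin. Among 22 genes of cisplatin uptake, efflux and conjugation, 13 were higher, the median was 0.02 and none passed. Slc22a2, the organic cation transporter through which tubule cells take up cisplatin, averaged 1490.4 ± 1129 with cisplatin and 1986 ± 2027 with doxorubicin (SD). In rats this gene is known to be more active in males, and both SDs were large beside the means. Of 21 podocyte genes that passed the filter, 14 were higher, with a median of 0.08 and no call. Nphs1, which encodes nephrin of the slit diaphragm, had 179 to 275 in cisplatin rats and 128.6 to 221 in doxorubicin rats, with a difference of 0.34 and adjusted p of 0.53. Collecting duct genes were lower in 16 of 18, by a median of -0.12, with no call. Of 35 respiratory chain genes, 26 were lower by a median of -0.03, also with no call. Hmox1, the haem oxygenase, and Mt2A, a metallothionein, differed by -0.04 and 0.15.

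The same drugs after 1 day, in 6 other rats each, gave a list of calls that shared few genes with day 5. Unlike lists do not test a change between days, and that test is given further on. At day 1, 118 genes passed (1.12%), 86 higher with cisplatin (0.815%) and 32 lower (0.303%), beside 1626 (15.4%) at an unadjusted p of 0.05, 731 higher (6.93%) and 895 lower (8.48%). None of the 9 genes of day 5 was among them. Of the 74 genes that passed at day 5 with all 89 arrays, 1 was called at day 1, Slc39a11, which is 1.35% of the 74 and 0.847% of the 118. Of the 118, 88.1% had the same sign at day 5, with a median size of 0.59 on the log2 scale at day 1 and 0.22 at day 5. These genes were picked by their day 1 p, which by itself favours larger sizes at day 1. The share of all genes with the same sign on both days is not given. Proximal tubule transporters, with 11 of 32 called higher and a median of 0.34 at day 1, had a median of 0.08 at day 5. Slc16a1, a lactate transporter, differed by 2.25 at day 1 (adjusted p 0.018) and did not pass at day 5 (0.659).

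The change of the difference between days passed for 4 genes (0.0379%), with 717 (6.8%) at an unadjusted p of 0.05, 454 larger (4.3%) and 263 smaller (2.49%). These were Hbb, Hba-a3, Alas2 and Bst2, whose differences were larger at day 5 than at day 1 by 4.92, 2.28, 1.60 and 0.97 on the log2 scale. At day 1 Hbb averaged 4906 with cisplatin and 3666 with doxorubicin, a difference of 0.44 with adjusted p of 0.0783. The difference between males and females passed for 3 genes (0.0284%), with 1100 (10.4%) at an unadjusted p of 0.05, 624 higher in males (5.92%) and 476 lower (4.51%). Acaa2, a thiolase of fatty acid oxidation, Hpd, an enzyme of tyrosine breakdown, and Nabp1, a single-strand DNA binding protein, had a higher difference in males than in females by 1.38, 1.02 and 2.45, each with adjusted p of 0.0486. With 3 cisplatin and 2 or 3 doxorubicin rats of a sex, leaving out 1 rat moved this count between 0 and 84.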

How the data were processed

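Kidney RNA was hybridised to Affymetrix rat arrays, 1 per rat. The deposited values are linear signal intensity per probe set, made by the authors with MAS5, per the submitters' processing notes, which state neither its version nor its target level. Of 31099 probe sets, 20826 carry 1 gene symbol, 436 several, 9780 none and 57 are controls. Trimmed means (2% off each end) differed up to 3.84-fold over the 89 arrays, so each array was scaled to a common one. Signals became log2(signal + 16), with 1 probe set per gene (the highest mean), for 14217 genes. A gene was tested if at least 5 of the 11 arrays exceeded 33.1 (the 40th percentile over the whole series), which left 10549. limma 3.58.1 in R 4.3.3 (lmFit, eBayes with trend and robust, sex as covariate) gave two-sided tests with Benjamini-Hochberg adjustment over all genes tested and a threshold of 0.05. It was tested on simulated data. For a gene under the limit on all arrays of 1 drug, a fold against the limit is given as a lower bound. Arrays give no counts, so their number limits precision, and each array was a separate rat.

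Genes are named if they passed, had among the smallest p, led a gene list, were fixed injury, p53 or drug genes, or led the fits on all arrays, at day 1 or of interactions. The members and lists were chosen with earlier results of these data known. Alternatives were other scaling, pseudocounts, filters, weights, covariates, all arrays, 1 sex, all probe sets, and leaving out rats.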

Additional observations from a re-analysis of the deposited data

Results flagged for a closer look

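Among the groups of 4 to 10 rats tested gene by gene, 2.56% (4 groups) held a rat far from the others by Dixon's criterion, and chance flags about 1 in 20 groups. Hba-a3 had 12.1 in 1 female doxorubicin rat, with 34.3 to 46.9 in the other 4. Pcca, an enzyme of propionate breakdown, had 525 in 1 male cisplatin rat, with 756 to 820 in the other 5. A single male doxorubicin rat had 1158 for Havcr1 and 551 for Lcn2, with 12.7 to 35.3 and 49.1 to 61.0 in the other 4.

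The difference between cisplatin and doxorubicin was larger at day 5 than at day 1, by a test of the interaction in limma, for Hbb (log2 4.92, adjusted p 3.53e-13), Hba-a3 (2.28, 0.00771), Alas2 (1.60, 0.0140) and Bst2 (0.97, 0.0355). It was higher in males than in females at day 5 for Acaa2 (1.38), Hpd (1.02) and Nabp1 (2.45), each with an adjusted p of 0.0486.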

How the results depend on the processing

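No paired analysis was possible because every array came from a different rat and no label links rats across drugs. No gene turned its direction with a call in either fit. Of 78 genes named, 10 changed sign in at least 1 alternative, and so did the medians of 20 of 41 lists, which have no test. None of the 10 was called in the main fit or in a fit where its sign changed. Slc16a1, Hpd, Acaa2, Nabp1 and Gdf15, all among the 10, were each called in 1 other alternative. Of the 9 genes called at day 5, Hbb passed under all 25 alternatives, and Hba-a3, Alas2 and Slpi passed in all 11 fits that left out 1 rat. Leaving out 1 rat gave 4 to 18 calls, 4 to 16 higher and 0 to 3 lower. It was 18 without 1 female doxorubicin rat and 4 or 5 without any 1 of 8 others, 4 of each drug. Counts that moved were 74 with all 89 arrays (41 higher, 33 lower), about 1.1e+02 without scaling (108 higher and 5 lower, the median of all genes then being 0.24), 72 with males only (62 higher, 10 lower), 1 with females only (1 higher, 0 lower), and 4 without the pair of male cisplatin rats with high Havcr1 (4 higher, 0 lower). The higher count was 5 with a filter on the mean and 5 with sex left out, and the lower count was 0 with plain eBayes and 3 with the Gapdh ratio as covariate. At day 1, quantile scaling gave 17 lower in place of 32. The interaction with day had 1 call (1 higher) with a pseudocount of 64, and 3 to 5 when 1 rat was left out. The interaction with sex had 0 (0 higher) with no filter and 0 to 84 (0 to 71 higher, 0 to 13 lower) when 1 rat was left out. The causes were not tested. Array number and dim signals limit the rest: genes near 33.1 have only bounds.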
